A study of Mus musculus with 16 samples.

Results

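The 26S proteasome is the protease that degrades proteins tagged with ubiquitin. Its barrel, the 20S core, has an outer ring of alpha subunits (Psma genes) on each side and inner rings of beta subunits (Psmb genes), of which some carry the catalytic sites. A 19S cap made of ATPases (Psmc genes) and other subunits (Psmd genes) recognises and unfolds the substrate, and separate activator caps (Psme genes) can open the barrel instead. Interferon gamma induces alternative catalytic subunits that replace the constitutive ones and favour peptides for MHC class I presentation.

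Proteasome genes were followed in the liver of mice on regular chow, on a high-fat diet (HFD), and on HFD with injected NMN (nicotinamide mononucleotide), which cells convert to NAD. Members were all probes whose gene symbol begins with Psma, Psmb, Psmc, Psmd, Psme or Psmf and a digit, without 1 gene that the rule leaves out, and whose detection p was under 0.01 on at least 4 of the 16 arrays. By symbol, 41 probes qualified, and 34 of them were detected often enough, out of 10550 probes of the whole array that passed the same filter. Of the 34, 33 stand for core subunits, cap subunits, activators or assembly chaperones. The remaining one, Psme3ip1, encodes a nuclear protein that binds the activator Psme3 and is no subunit. Each gene had 1 probe.

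All mice were female C57BL/6J, and total RNA of frozen liver was hybridised to 1-colour Illumina bead arrays. Chip A held 4 chow mice and 4 HFD mice with no other treatment. Chip B held 4 HFD arrays, and 4 HFD mice given NMN into the peritoneum for 7 days. By the animal numbers in the column names, chip B repeats the 4 HFD mice of chip A, so the 16 arrays hold 12 mice. Ages and the length of the diet were not stated in the labels. Levels are log2 intensities after background correction and quantile normalization, a change is a difference of 2 such means, and SE is the moderated standard error of limma.

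Across arrays, 9473 to 10569 probes were detected, at a mean signal of 202 on each. The number of arrays limits the precision. Deviations of an HFD mouse from its group mean correlated between its chip A and chip B arrays at 0.88, 0.88, 0.73 and 0.85 over all tested probes. The hepatocyte markers Ttr and Apoa1 were detected on all 16 arrays, with mean log2 values of 13.73 and 13.93 in chow. The probe for Alb, also detected on all 16, had a mean of 5.89 in chow, and that for Tat was detected on 0 arrays. In whole liver, fewer cells of a type and less RNA per cell cannot be told apart.

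Of the 34 members, 31 were detected on all 16 arrays, Psmd9 on 14, Psmd12 on 10 and Psmd6 on 6. Just outside the rule lay Psmc3ip, a recombination factor and no subunit, detected on 3 arrays. Psma1, Psma3 and Psma6 of the alpha ring, Psmc6 of the ATPase ring, Psmd11 of the lid and the activator Psme4 were each detected on 0 arrays. Nothing is reported for those genes, since a probe without signal gives no level.

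The upstream sequences of 3 members are shown because the results below turn on the first and second, and the third belongs to a constitutive catalytic subunit. They are the 250 bases before the gene start in RefSeq, build GRCm38.p6, read 5′ to 3′ on the strand of the gene. Psmb10, an inducible catalytic subunit, lies on the minus strand of chromosome 8 with its window at chr8:105938393-105938642. Psme1, a subunit of the interferon-inducible activator, has its window on the plus strand at chr14:55578244-55578493. For Psmb5, the chymotrypsin-like subunit, the window is on the minus strand at chr14:54617996-54618245. Capitals mark the motif matches named after the sequences.
Psmb10: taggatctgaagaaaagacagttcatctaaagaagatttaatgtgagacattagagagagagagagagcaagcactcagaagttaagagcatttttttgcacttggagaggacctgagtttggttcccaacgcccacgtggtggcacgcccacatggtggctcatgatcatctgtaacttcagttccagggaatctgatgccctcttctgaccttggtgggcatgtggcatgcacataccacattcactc
Psme1: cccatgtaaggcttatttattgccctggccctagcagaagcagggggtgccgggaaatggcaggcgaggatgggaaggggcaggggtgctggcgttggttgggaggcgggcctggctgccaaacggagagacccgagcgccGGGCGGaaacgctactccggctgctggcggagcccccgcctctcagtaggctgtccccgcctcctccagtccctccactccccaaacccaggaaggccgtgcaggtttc
Psmb5: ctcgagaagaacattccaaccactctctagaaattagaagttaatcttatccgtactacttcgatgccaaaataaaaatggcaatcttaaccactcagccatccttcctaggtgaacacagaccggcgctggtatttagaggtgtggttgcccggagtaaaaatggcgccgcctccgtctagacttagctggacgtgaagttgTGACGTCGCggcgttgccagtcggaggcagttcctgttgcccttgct

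Such windows were found for 29 of the 34 members, 32 windows in all, and 5 motifs were searched on both strands. The antioxidant response element, spelled TGACNNNGC, stood in 4 windows (12.5%) and, over all genes, in 3338 of 32851 windows. A CCAAT box (CCAAT) was present in 34.4% of member windows against 33.8% of all. For the interferon-stimulated response element, which is TTTC, 2 bases of any kind and TTTC again, the shares were 9.38% and 2.98%. The member windows with it were 3, those of Psmb3, Psmd4 and Psmd9. For the gamma-activated site, TTCNNNGAA, the shares were 0% and 7.02%. The GC box (GGGCGG) occurred in 59.4% of member windows and 32.7% of all. The window of Psmb10 held none of the 5, that of Psme1 held a GC box, and that of Psmb5 held an antioxidant response element match 47 bases before the start. A match is a description of letters, and no binding was measured.

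The first comparison set HFD against chow on chip A. The inducible catalytic subunit Psmb10 fell, and it was the only one of the 34 members to pass. Over all tested probes, 7.27% passed, 3.72% higher and 3.55% lower; among members the share was 2.94%, no larger than the background. The members' median change was -0.004, against -0.014 for all probes, and 15 of 34 lay above 0 (44.1%, against 46.9% of all probes). Changes ran from -0.34 to 0.24, with a median size of 0.09 against 0.13 over all probes. At an unadjusted p under 0.05 there were 5 members (14.7%, against 23.4% of all probes). Only 4 members moved by more than 0.2 in either direction, while 32.8% of all probes did. For 32 of the 34, the 95% interval of the change lay within 0.5 on either side of 0, and the lowest and highest bounds were -0.51 and 0.46.

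**Figure D1:**
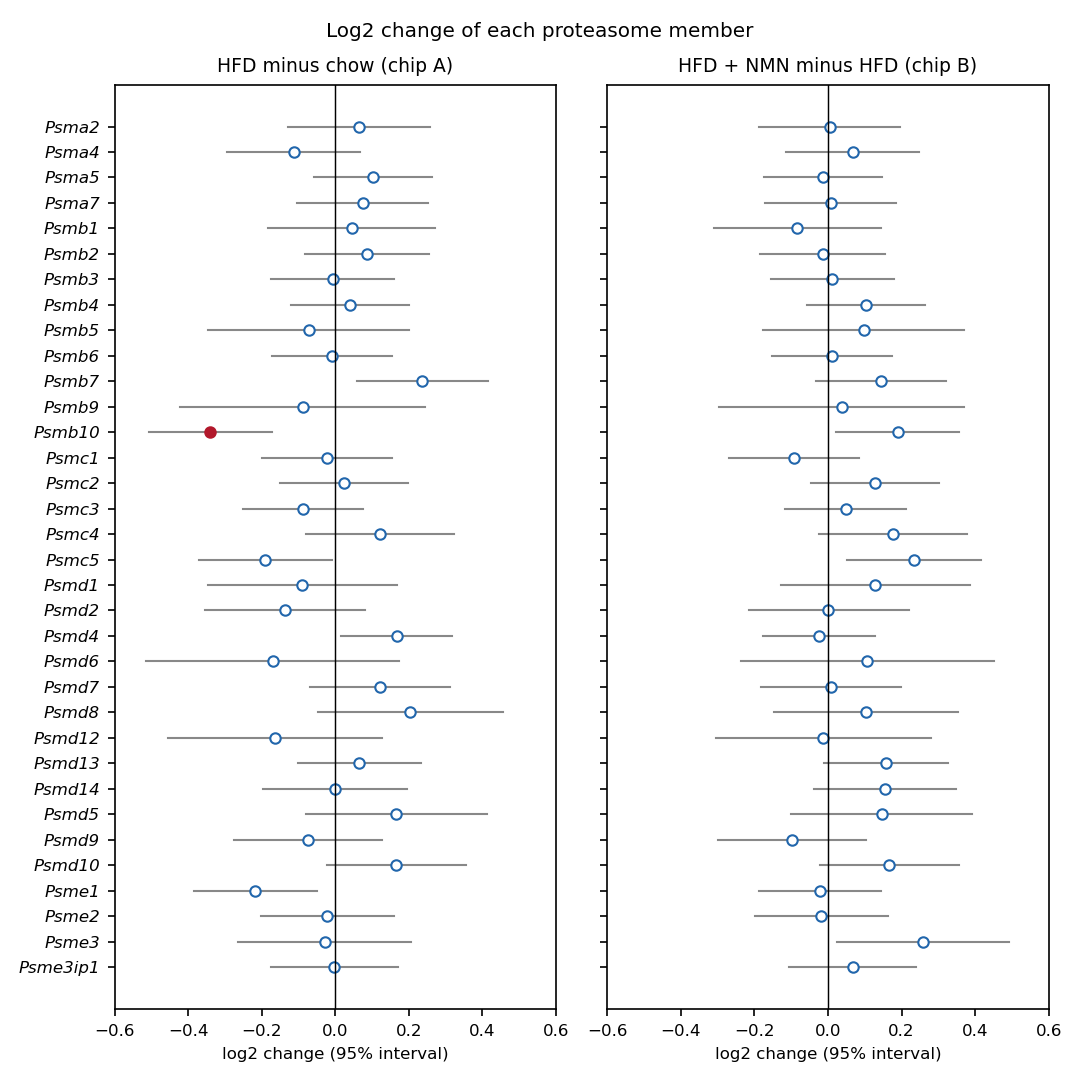
Log2 change of each of the 34 members for HFD minus chow on chip A (left) and HFD with NMN minus HFD on chip B (right), with 95% intervals from limma and 4 arrays a group. The filled red point is Psmb10, at -0.34, the only change that passed an adjusted p of 0.05; open points did not pass.

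Among the inducible catalytic subunits, Psmb10 replaces Psmb7 and carries the trypsin-like site. It read 9.49, 9.30, 9.52 and 9.39 in chow mice 1 to 4, and in the 4 HFD mice of that chip 9.01, 9.16, 9.17 and 8.998. Every HFD array lay below every chow array. The change was -0.34 (SE 0.08, adjusted p = 0.0163 in limma), a 1.27-fold lower level, and an exact permutation test of these 8 arrays gave p = 0.0286, the smallest that 4 against 4 allows. The same HFD mice read 9.04, 9.21, 9.15 and 9.08 on chip B, a repeat difference of 0.04 (adjusted p = 0.682, limma). NMN mice read 9.34, 9.28, 9.20 and 9.43, and the lowest of them lay just under the highest HFD array.

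The mean of Psmb10 was 9.43 ± 0.10 (SD, n = 4) in chow, 9.09 ± 0.09 in HFD on chip A, 9.12 ± 0.07 in HFD on chip B and 9.31 ± 0.10 with NMN. NMN minus HFD was 0.19 (SE 0.08), with an unadjusted p of 0.0289 and an adjusted p of 0.469 in limma, so it did not pass. NMN minus chow was -0.15 (adjusted p = 0.291, limma). Leaving out any 1 mouse kept the diet change between -0.38 and -0.31, with adjusted p between 0.0151 and 0.0498 in limma. The call was lost in 3 alternatives: the authors' z scores (-0.28, adjusted p = 0.0533), the replicate number as a block (-0.34, adjusted p = 0.0601), and without HFD mice 2 and 3, whose macrophage sums were highest (-0.42, adjusted p = 0.0588).

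Markers of other liver cells moved in the same comparison. Marker sums are the log2 of signals added on the linear scale, so the strongest probes weigh most. For the 5 tested Kupffer cell or macrophage markers the sum was 10.09 to 11.09 in chow. In HFD on chip A it was 11.13 to 12.10, without overlap. Of these markers Clec4f and Lyz2 rose with HFD, by 0.98 (adjusted p = 0.0227) and 1.65 (adjusted p = 0.0208) in limma, and the probe for Cd5l was detected on 0 arrays. The 6 hepatocyte markers summed to 15.39 to 15.46 in chow and 15.09 to 15.32 in HFD, and Ass1 and Cps1 fell. Alb (-0.37), Hnf4a (-0.16), Ttr (-0.10) and Apoa1 (0.05) did not pass. Sums of the 6 neutrophil markers overlapped, at 8.08 to 9.91 and 8.62 to 12.74, and S100a8 and S100a9 rose. The highest sum of each group followed Lcn2, at 9.74 in chow mouse 4 and 12.68 in HFD mouse 1. Lcn2 and Camp differed in order over HFD mice 1 to 4 of chip A. Lcn2 read 12.68, 11.02, 8.94 and 7.96, and Camp 4.35, 6.34, 6.04 and 4.145. Ngp, Camp and Retnlg were each detected on 0 chow arrays and 2 HFD arrays of chip A. Those and Lcn2 did not pass.

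T and NK cells carry inducible subunits. Their 3 tested markers summed to 6.06 to 7.01 in chow, 6.19 to 6.48 in HFD on chip A and 6.38 to 7.71 with NMN, and 0 of the 3 passed for the diet. Cd8a, Gzma and Gzmb were detected on 0 arrays. Of the remaining lists, 2 of 5 endothelial markers rose with HFD (Stab2 and Lyve1), and 0 of 5 stellate, 0 of 1 B cell and 0 of 2 erythroid markers passed; no cholangiocyte marker could be tested. The part of these cells in the change of Psmb10 was not tested.

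Psmb9, which replaces Psmb6 at the caspase-like site, had the largest SD of all members in chow mice and in HFD mice on both chips, though not with NMN. It read 7.57, 7.24, 7.67 and 7.202 in chow, and 6.85, 7.62, 7.67 and 7.19 in HFD on chip A. The repeats on chip B, at 6.997, 7.599, 7.61 and 7.29, kept mouse 1 lowest. NMN mice read 7.18, 7.36, 7.56 and 7.54. All groups overlapped, the diet change was -0.09 (SE 0.16, 95% interval -0.42 to 0.25), and the NMN change was 0.04 (SE 0.16). Neither direction was stable: leaving out 1 mouse at a time gave -0.20 to 0.07 for the diet, positive only without HFD mouse 1, and -0.09 to 0.11 for NMN. Other settings gave -0.40 to 0.05 and -0.05 to 0.27.

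**Figure D2:**
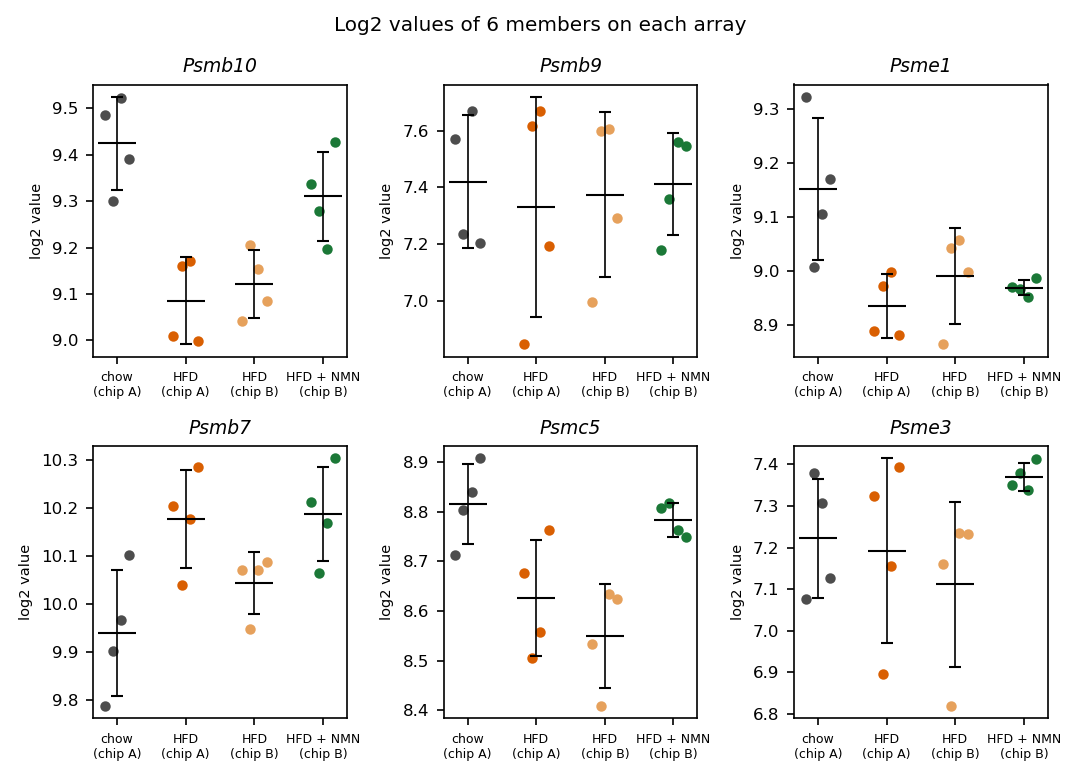
Log2 values of 6 members on each of the 16 arrays, by group; points are arrays, the horizontal bar is the mean and the whiskers are 1 SD of 4 arrays, and each axis has its own range. Psmb10 separates chow (9.30 to 9.52) from HFD on chip A (8.998 to 9.17), while Psmb9 spans 6.85 to 7.67 within HFD on chip A.

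The constitutive catalytic subunits were higher, lower or level in HFD without passing. Psmb7, the trypsin-like subunit that Psmb10 replaces, read 9.79, 9.90, 9.97 and 10.10 in chow and 10.20, 10.04, 10.18 and 10.29 in HFD on chip A. Its change of 0.24 (SE 0.08) had an adjusted p of 0.096 in limma, and the lowest HFD array lay inside the chow range. On chip B the HFD mice read 10.07, 9.95, 10.07 and 10.09, and the NMN mice 10.21, 10.07, 10.17 and 10.30. NMN minus HFD was 0.14 (SE 0.08, adjusted p = 0.675).

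Psmb5, with the chymotrypsin-like site and the upstream window printed above, read 8.20, 7.70, 7.91 and 8.01 in chow and 7.98, 7.65, 8.07 and 7.84 in HFD on chip A. Repeats gave 8.002, 7.87, 8.07 and 8.12, and NMN mice 8.30, 7.92, 8.26 and 7.97. The groups overlapped in both comparisons, with changes of -0.07 (SE 0.13) for the diet and 0.10 (SE 0.13) for NMN. Psmb6, the caspase-like subunit, read 10.26, 10.37, 10.35 and 10.54 in chow and 10.46, 10.34, 10.37 and 10.32 in HFD on chip A. On chip B, HFD mice read 10.48, 10.39, 10.45 and 10.36 and NMN mice 10.47, 10.28, 10.48 and 10.49. Psmb6 was the flattest of the 3, at -0.01 (SE 0.08) for the diet and 0.01 (SE 0.08) for NMN.

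Since Psmb10 and Psmb7 occupy the same place in the core, their difference was also taken within each array. Relative to the chow mean, Psmb7 minus Psmb10 was -0.21, 0.09, -0.07 and 0.20 in chow and 0.68, 0.36, 0.49 and 0.77 in HFD on chip A. All HFD arrays lay above all chow arrays, a difference of 0.58 with an exact permutation p of 0.0286. Adjusted by Benjamini and Hochberg over the 4 comparisons of this kind, that p was 0.114 and did not pass. It could not pass, since a lone comparison at the smallest exact p of 4 against 4 arrays stays above 0.05 after this adjustment. The difference combines the changes of Psmb7 and Psmb10 given above, so it is no separate result. For NMN against HFD the difference was -0.05 (exact p = 0.571). Psmb6 minus Psmb9 differed by 0.08 (exact p = 0.743) for the diet and by -0.03 (exact p = 0.886) for NMN.

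**Figure D3:**
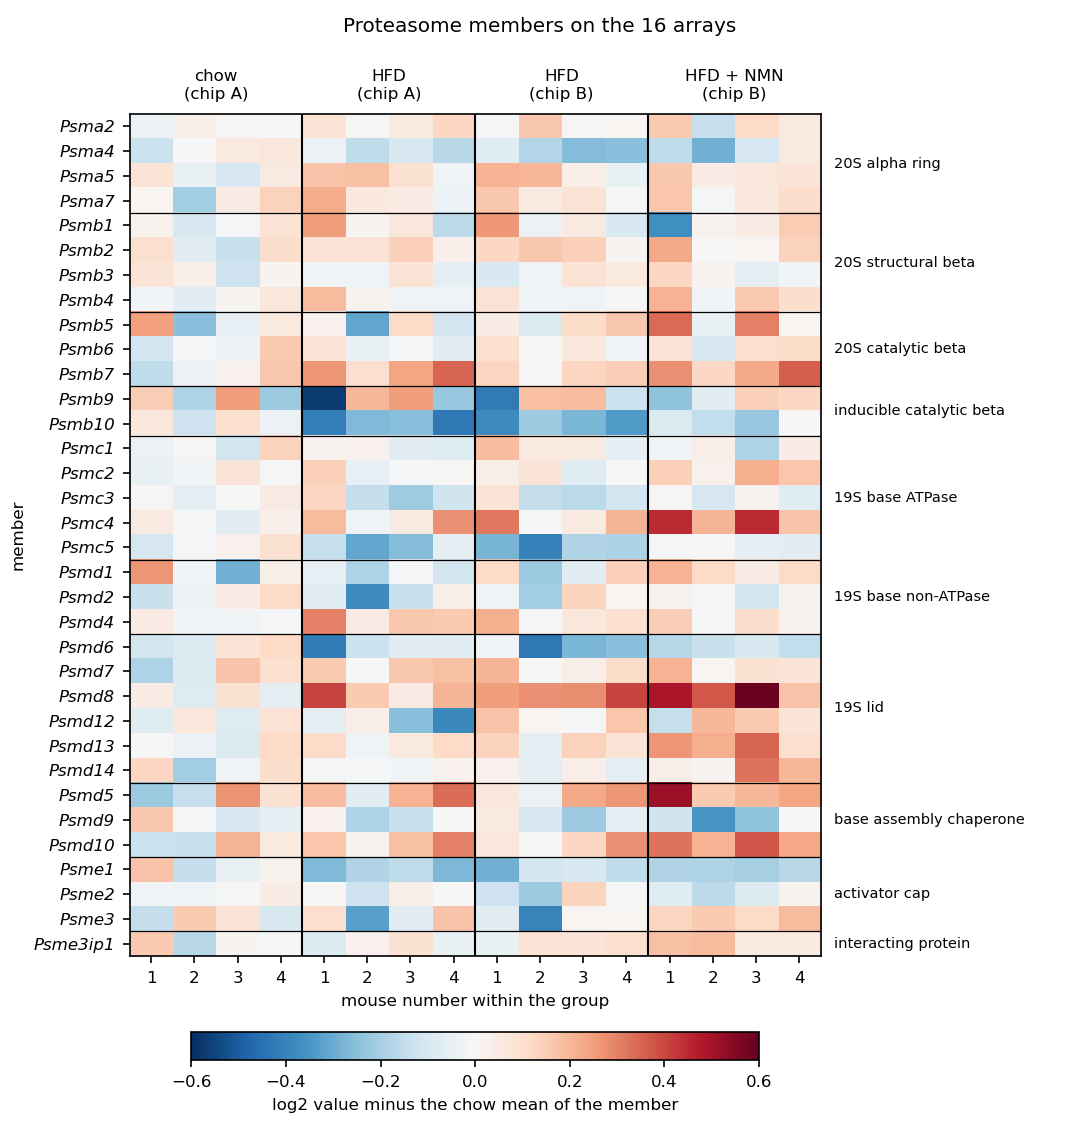
Log2 value of each of the 34 members on each of the 16 arrays, minus that member's mean over the 4 chow arrays, with members ordered by role and mice numbered within a group; HFD mice 1 to 4 are the same animals on both chips. Colours run from 0.6 below (blue) to 0.6 above (red), and the row of Psmb10 is blue on all 8 HFD arrays.

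The alpha ring gates entry into the core, and 4 of its 7 probes were detected. None of the 4 passed in the diet comparison, with a median of 0.07 and a range of -0.11 to 0.10. Psma4 read 10.43, 10.56, 10.62 and 10.63 in chow and 10.53, 10.41, 10.46 and 10.40 in HFD on chip A. Its later values were 10.49, 10.39, 10.30 and 10.31 in the HFD repeats and 10.41, 10.28, 10.46 and 10.62 with NMN, so that the groups overlapped. Psma5 read 11.37, 11.26, 11.20 and 11.35 in chow, 11.46, 11.47, 11.38 and 11.27 in HFD on chip A, 11.501, 11.49, 11.334 and 11.26 in the repeats, and 11.46, 11.337, 11.362 and 11.37 with NMN. HFD mice 1 and 2 were the highest on both chips for Psma5. Psma2 and Psma7 changed by 0.07 and 0.08 for the diet.

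Structural beta subunits build the inner rings without cutting. Their 4 probes had diet changes of -0.01 to 0.09, and 0 of 4 passed. Psmb2 read 11.08, 10.91, 10.85 and 11.09 in chow and 11.07, 11.07, 11.12 and 11.01 in HFD on chip A. Its repeats gave 11.11, 11.14, 11.12 and 10.999, and NMN mice 11.21, 10.98, 10.99 and 11.12. The HFD arrays were closer together than the chow arrays and lay in or just above the upper part of their range. Psmb4 read 11.57, 11.52, 11.60 and 11.65 in chow, 11.77, 11.61, 11.56 and 11.56 in HFD on chip A, and 11.67, 11.57, 11.57 and 11.58 in the repeats. With NMN it read 11.79, 11.57, 11.75 and 11.69, a change of 0.10 (SE 0.08) from HFD. Psmb1 and Psmb3 changed by 0.05 and -0.01 for the diet.

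The 5 detected ATPases of the 19S base, which unfold the substrate, had diet changes between -0.19 and 0.12, and 0 passed. Psmc5 read 8.71, 8.80, 8.84 and 8.91 in chow and 8.68, 8.51, 8.56 and 8.76 in HFD on chip A, a change of -0.19 (SE 0.09, adjusted p = 0.191 in limma). The HFD repeats on chip B read 8.53, 8.41, 8.63 and 8.62, and the NMN mice 8.81, 8.82, 8.76 and 8.75. All 4 NMN arrays lay above all 4 HFD arrays of chip B. The same HFD mice on chip A reached 8.76, inside the NMN range. NMN minus HFD on chip B was 0.23 (SE 0.09), with an unadjusted p of 0.0147 and an adjusted p of 0.384 in limma.

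Psmc4 read 10.33, 10.26, 10.20 and 10.30 in chow, 10.46, 10.25, 10.33 and 10.55 in HFD on chip A, and 10.59, 10.26, 10.33 and 10.47 in the repeats. NMN mice read 10.72, 10.48, 10.72 and 10.44, overlapping with HFD mice 1 and 4. The diet change was 0.12 (SE 0.10) and the NMN change 0.18 (SE 0.10). Psmc1, Psmc2 and Psmc3 changed by -0.02, 0.02 and -0.09 for the diet.

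In the rest of the base, Psmd1 and Psmd2 are the large scaffolds and Psmd4 is a ubiquitin receptor. Psmd4 read 11.71, 11.65, 11.65 and 11.66 in chow and 11.97, 11.71, 11.83 and 11.83 in HFD on chip A. Only HFD mouse 2 reached down to the chow range, and the change was 0.17 (SE 0.07, adjusted p = 0.166 in limma). Repeats were 11.88, 11.65, 11.73 and 11.77, and NMN mice 11.82, 11.66, 11.77 and 11.69, a change of -0.02 from HFD.

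Psmd1 read 6.95, 6.66, 6.39 and 6.72 in chow, 6.63, 6.49, 6.67 and 6.57 in HFD on chip A, 6.80, 6.46, 6.61 and 6.83 in the repeats, and 6.89, 6.80, 6.73 and 6.79 with NMN. The chow arrays spanned all the HFD arrays of chip A. Psmd2 read 5.49, 5.58, 5.67 and 5.74 in chow, 5.55, 5.24, 5.49 and 5.66 in HFD on chip A, 5.59, 5.41, 5.75 and 5.63 in the repeats, and 5.64, 5.61, 5.51 and 5.64 with NMN. HFD mouse 2 was lowest for both scaffolds on both chips.

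The lid removes ubiquitin chains through Psmd14, the deubiquitinase, and Psmd7, its partner. Of the 6 detected lid members, 0 passed for the diet, with changes of -0.17 to 0.20. Psmd8 had the highest diet change among them, at 0.20 (SE 0.12, adjusted p = 0.322 in limma). It read 8.88, 8.76, 8.93 and 8.78 in chow, 9.24, 8.997, 8.89 and 9.04 in HFD on chip A, 9.09, 9.11, 9.12 and 9.25 in the repeats, and 9.33, 9.21, 9.43 and 9.01 with NMN. On chip A only HFD mouse 3 lay inside the chow range.

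Psmd7 read 8.12, 8.22, 8.47 and 8.39 in chow, 8.46, 8.30, 8.46 and 8.48 in HFD on chip A, 8.50, 8.30, 8.34 and 8.41 in the repeats, and 8.51, 8.31, 8.39 and 8.38 with NMN. Psmd13, a lid scaffold, read 10.21, 10.18, 10.13 and 10.34 in chow, 10.33, 10.19, 10.27 and 10.34 in HFD on chip A, 10.35, 10.16, 10.35 and 10.30 in the repeats, and 10.48, 10.43, 10.56 and 10.31 with NMN. Its NMN change was 0.16 (SE 0.08, adjusted p = 0.595 in limma), and 3 of 4 NMN arrays lay above all HFD arrays of chip B. Psmd14 changed by -0.001 for the diet and 0.16 for NMN.

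Base assembly chaperones (Psmd5, Psmd9 and Psmd10) bind the ATPases before the 26S particle forms and then leave. Psmd10, also called gankyrin, read 6.75, 6.74, 7.08 and 6.93 in chow and 7.04, 6.89, 7.05 and 7.18 in HFD on chip A. Its repeats gave 6.94, 6.88, 6.999 and 7.15, and NMN mice 7.2, 7.08, 7.25 and 7.10. The changes were 0.17 (SE 0.09) for the diet and 0.17 (SE 0.09) for NMN, with adjusted p = 0.278 and 0.634 in limma. Psmd5 read 6.06, 6.15, 6.55 and 6.38 in chow, 6.47, 6.22, 6.49 and 6.62 in HFD on chip A, 6.36, 6.25, 6.51 and 6.55 in the repeats, and 6.80, 6.44, 6.49 and 6.52 with NMN. The chow arrays of both genes were split, with mice 3 and 4 above mice 1 and 2. Psmd9 changed by -0.07 and -0.10 in the 2 comparisons.

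The activator Psme1 and its partner Psme2 form the interferon-inducible ring PA28, whereas Psme3 forms a ring of its own in the nucleus. Psme1 read 9.32, 9.01, 9.11 and 9.17 in chow and 8.89, 8.97, 8.998 and 8.88 in HFD on chip A. Every HFD array lay below every chow array, by 0.22 in the mean (SE 0.08), but the adjusted p of 0.106 in limma did not pass. Repeats gave 8.86, 9.04, 9.06 and 8.998, of which 2 lay inside the chow range. NMN mice read 8.97, 8.97, 8.95 and 8.99, with an SD of 0.01.

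Together with Psmb10, Psme1 made up the 2 of 34 members (5.88%) whose chow and HFD arrays did not overlap, against 14.9% of all probes. Psme2 changed by -0.02 (SE 0.09) for the diet. Psme3ip1 changed by -0.002 for the diet and 0.07 for NMN.

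The second comparison set HFD with NMN against HFD on chip B. None of the 34 members passed, where 1 of 10550 probes did (0.00948%). At an unadjusted p under 0.05 there were 3 members (8.82%), namely Psmb10, Psmc5 and Psme3, against 8.97% of all probes. More members lay above 0 than below, 25 of 34 (73.5%) against 48.6% of all probes, and the median change was 0.06 against -0.004. Changes ran from -0.10 to 0.26, and the interval of every member lay within 0.5 on either side of 0, with bounds from -0.31 to 0.49. Members share their mice and are no replicates of the treatment, so the count above 0 has no test.

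Psme3 had the highest of these changes. It read 7.16, 6.82, 7.24 and 7.23 in HFD on chip B and 7.35, 7.38, 7.34 and 7.41 with NMN, after 7.08, 7.38, 7.31 and 7.13 in chow and 7.33, 6.90, 7.16 and 7.39 in HFD on chip A. All NMN arrays lay above the HFD arrays of chip B, and HFD mouse 2 was lowest on both chips. The change was 0.26 (SE 0.11), with an unadjusted p of 0.0324 and an adjusted p of 0.491 in limma. Psme3 and Psmc5 were the 2 members (5.88%) without overlap, against 4.78% of all probes (2.35% higher, 2.43% lower). The same HFD mice on chip A reached 7.39 for Psme3, inside the NMN range.

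By role, the 3 constitutive catalytic subunits had NMN changes of 0.01 to 0.14, the 5 ATPases of -0.09 to 0.23 and the 6 lid members of -0.01 to 0.16. Medians were 0.10, 0.13 and 0.11. The alpha ring and the structural beta subunits had medians of 0.01 and -0.002. None of these changes passed.

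The third comparison runs from chow to NMN through the HFD arrays of each chip, since chow and NMN mice were never on 1 chip; it shares its arrays with the first and second. In it 2 of 34 members rose (5.88%), where 11% of all probes passed, 5.32% higher and 5.65% lower. Psmb7 rose by 0.38 (SE 0.10, adjusted p = 0.015 in limma). Its direct means were 9.94 ± 0.13 (SD, n = 4) in chow and 10.19 ± 0.10 with NMN, closer together than the sum of both comparisons, and the HFD repeats of Psmb7 on chip B lay 0.13 below those on chip A (adjusted p = 0.0579). Psmd10 rose by 0.33 (adjusted p = 0.0386), with direct means of 6.87 ± 0.16 and 7.16 ± 0.08. The median over members was 0.06, and 22 of 34 lay above 0 (64.7%, against 47.7%).

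The call on Psmd10 was lost in many alternatives. Without chow mouse 1, 2 or 4, HFD mouse 1 or 3, or NMN mouse 1 or 3, it did not pass, with adjusted p up to 0.116 in limma. It was also lost with no filter (adjusted p = 0.111), the z scores (0.25, adjusted p = 0.0878), no mouse block (adjusted p = 0.193), the replicate block (adjusted p = 0.089) and without HFD mice 2 and 3 (adjusted p = 0.073). The call on Psmb7 held without each mouse in turn (adjusted p 0.0137 to 0.0421). It was lost under median scaling (0.28, adjusted p = 0.104), with the z scores (0.24, adjusted p = 0.084) and with no mouse block (0.38, adjusted p = 0.0994). Under median scaling Psme1, at -0.24 (adjusted p = 0.0894) otherwise, became -0.31 with an adjusted p of 0.0378.

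Markers of other cells moved in this comparison too. The 5 macrophage markers summed to 10.09 to 11.09 in chow and 11.02 to 12.66 with NMN. Clec4f (0.91, adjusted p = 0.0371 in limma) and Lyz2 (1.95, adjusted p = 0.0105) rose, while Adgre1 (1.11), Vsig4 (1.04) and Marco (-0.48) did not pass. Sums of 5 stellate markers were 8.63 to 9.08 and 9.38 to 9.81, without overlap. They mostly followed Dcn, with direct means of 8.38 in chow and 9.23 with NMN. Dcn rose by 0.78 (adjusted p = 0.00813 in limma), while Col1a1 (0.38), Rgs5 (0.27), Des (0.07) and Lrat (-0.21) did not pass. Endothelial sums overlapped, at 11.19 to 11.71 in chow and 11.18 to 11.51 with NMN. Lyve1 rose by 0.61 (adjusted p = 0.0317 in limma), while Stab2 (0.37), Pecam1 (0.32), Clec4g (-0.05) and Fcgr2b (0.01) did not pass. In the neutrophil list only Lcn2 passed, rising by 2.87 (adjusted p = 0.047 in limma). S100a8 (1.13), S100a9 (0.66), Camp (0.11), Retnlg (0.08) and Ngp (0.075) did not pass. Hepatocyte sums were 15.39 to 15.46 in chow and 15.17 to 15.33 with NMN. Through the HFD arrays Alb fell by 0.63 (adjusted p = 0.0101 in limma), but its direct means were 5.89 in chow and 5.87 with NMN. The same HFD mice read 0.61 higher for Alb on chip B than on chip A (adjusted p = 1.46e-05 in limma). Cps1 (-0.54), Ass1 (-0.43), Hnf4a (-0.175), Ttr (-0.11) and Apoa1 (-0.04) did not pass from chow to NMN. The T and NK, B cell and erythroid lists had 0 markers that passed. The part of these cells in the changes of Psmb7 and Psmd10 was not tested.

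The HFD repeats show how far the chips differ for the same mice. Of all probes 4.88% passed between chips, 3.51% higher and 1.37% lower, and of the members 1 of 34 (2.94%), Psmd12 of the lid, which rose by 0.25 from chip A to chip B (SE 0.06, adjusted p = 0.03 in limma). It read 4.71, 4.82, 4.53 and 4.39 in HFD on chip A and 4.95, 4.79, 4.77 and 4.94 on chip B, 4.70, 4.84, 4.70 and 4.86 in chow, and 4.64, 4.97, 4.93 and 4.85 with NMN. This probe lies near its detection limit, being detected on 2 chow arrays, 2 HFD arrays of chip A, and 3 arrays each of HFD on chip B and NMN. Without HFD mouse 1, 3 or 4, it did not pass, and without HFD mouse 4 the difference was 0.15. The median chip difference of all members was 0, with 17 of 34 above 0 against 43.7% of all probes.

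Spread between mice was compared with that of all tested probes, which differ in signal: the median log2 level was 9.04 for members and 6.38 for all probes. The part of signal level in the spread was not tested. The members' median SD over mice was 0.11 in chow, 0.10 in HFD on each chip and 0.10 with NMN, against 0.14, 0.14, 0.15 and 0.14 over all probes. Between both arrays of an HFD mouse, it was 0.05 against 0.07. In 27 of 34 members, the repeat SD was below the SD between HFD mice on both chips. Psmb9 had the largest SD between HFD mice, 0.39 on chip A and 0.29 on chip B, with mouse 1 at 0.49 and 0.38 below its group means.

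**Figure D4:**
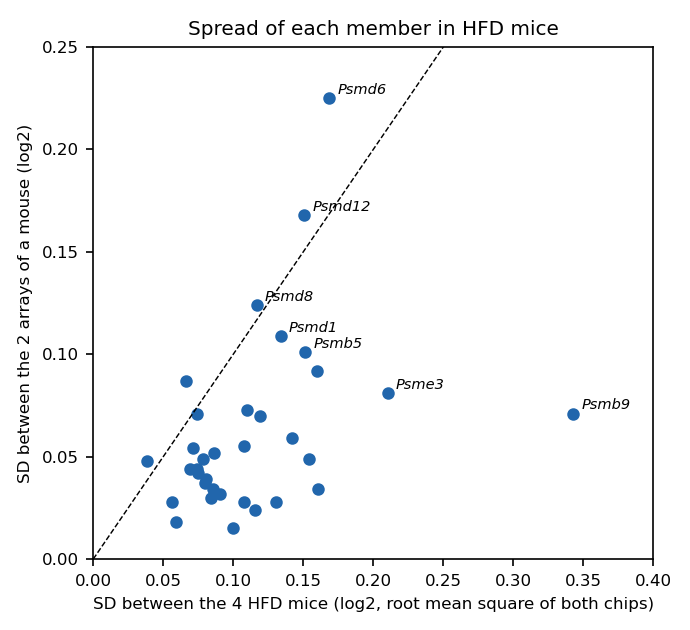
SD between the 4 HFD mice (x axis, log2, root mean square of both chips) against the SD between both arrays of a mouse (y axis, log2) for each of the 34 members; the dashed line marks equal values. Psmb9 lies farthest to the right; Psmd6 and Psmd12, detected on 6 and 10 arrays, and Psma2, Psmd8 and Psmd14, detected on all 16, lie above the line, and the other members below it.

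Beyond the members, 56 genes around the proteasome were listed, of which 42 had a named probe and 31 were tested. None passed for the diet or for NMN. Among assembly factors, Pomp, which matures the 20S core, read 11.41, 11.31, 11.31 and 11.343 in HFD on chip B and 11.59, 11.54, 11.56 and 11.53 with NMN, without overlap. That change was 0.21 (SE 0.07), with an unadjusted p of 0.0051 and an adjusted p of 0.268 in limma. Its diet change was -0.003.

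Nfe2l1 encodes the factor that induces proteasome genes when proteolysis is impaired. It changed by 0.05 for the diet and -0.07 for NMN, with adjusted p = 0.864 and 0.959 in limma. Nfe2l2, the regulator of antioxidant genes, was detected on 0 arrays. Genes of ubiquitin itself and the receptor Adrm1 were not analysed here.

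From chow to NMN, 2 of the 31 rose (6.45%, against 11% of all probes). They were Zfand2a, an arsenite-inducible zinc finger protein that binds the 19S cap, by 0.51 (adjusted p = 0.0316 in limma), and Ublcp1, a phosphatase of the 26S particle, by 0.35 (adjusted p = 0.0203). Between chips, Ecpas was 0.21 higher and Faf2 0.18 lower in the same mice. Among the 9 tested genes of MHC class I loading and interferon control, 0 passed in any comparison. The lowest diet changes among those 9 were in Pdia3, at -0.41 (adjusted p = 0.0621), and Calr, at -0.38 (adjusted p = 0.201), both chaperones of the endoplasmic reticulum. Tap1, the peptide transporter, changed by -0.07 and B2m, the light chain of class I molecules, by less than 0.01 for the diet.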

How the data were processed

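Total liver RNA of 12 mice was measured on 16 arrays in 4 groups of 4, taken from sample titles and the design text. The deposited signal table holds a linear intensity per probe, scaled to equal array means and not background-subtracted, and a detection p-value beside each intensity, per the file headers. A further deposited table holds a z score per probe, made by the authors. Of the members' z scores, 20 lay within 1e-04 of a straight line of log2 signal and 14 did not, Psmb10, Psmb7, Psmd10, Psmd12 and Psme1 among them; the labels do not say how those were made.

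Intensities were background-corrected and quantile normalized with neqc (offset 16) of limma 3.58.1 in R 4.3.3; differences are drawn toward 0 at low signal. Probes with detection p under 0.01 on at least 4 arrays (10550 of 25697) entered 1 fit of 4 groups with the mouse as a random block (correlation 0.788). P-values were adjusted by Benjamini and Hochberg over all 10550 probes, with 0.05 as threshold. Single values were tested by a two-sided exact permutation over 8 arrays. Symbols came from the platform annotation, which named 16850 probes. Members, lists and rules were chosen with earlier results of these data known. Values on every array are given for members that passed, for those of smallest p in each role, and for the catalytic subunits (22 in all). Scripts were tested on simulated data. In the main fit, replicate numbers paired the HFD arrays of both chips only. Alternatives were other filters, corrections, scalings, weights, blocks and left-out mice.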

Additional observations from a re-analysis of the deposited data

Results flagged for a closer look

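Of 92 groups of 4 arrays tested, 5 had 1 array farther from the other three than the 95% critical value of the gap over the range; chance gives about 1 in 20. Psmb4 was 11.67 in HFD mouse 1 on chip B, above the others at 11.57 to 11.58. Psmb6 was 10.28 in NMN mouse 2, below the others at 10.47 to 10.49. Psmb7 was 9.95 in HFD mouse 2 on chip B, below the others at 10.07 to 10.09. Psmd4 was 11.71 in chow mouse 1, above the others at 11.65 to 11.66. Psmd7 was 8.30 in HFD mouse 2 on chip A, below the others at 8.46 to 8.48.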

How the results depend on the processing

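In the diet comparison 1 member passed under all alternatives run except the z scores, the replicate block and leaving out HFD mice 2 and 3, a choice made after the data were seen, each with 0, and leaving out each mouse always gave 1. The member median became -0.057 under median scaling, when that of all probes was -0.035. For NMN, 0 members passed under every alternative. Between chips 0 members passed with no filter, z scores, no mouse block and the replicate block, and 0 to 1 without each mouse in turn. With no background correction, median scaling and array weights 2 passed, Psmd12 and Psmb7. With detection on all 16 arrays 1 passed, Psmb7. Adjusted p of Psmb7 in those alternatives was 0.0294 to 0.043 in limma. For NMN against chow 1 passed with no filter, with the replicate block and without HFD mice 2 and 3. With z scores and no mouse block 0 passed, and 1 to 3 without each mouse in turn. Under median scaling the member median of this comparison became -0.027, when that of all probes was -0.037. In that setting 14 of 34 members lay above 0 (41.2%, against 43.6% of all probes). One value reversed, the chip difference of Psmd12, which was -0.005 (adjusted p = 0.971 in limma) in the z scores, where its entry is off the line of log2 signal. The causes were not tested.

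Same-numbered chow and HFD mice on chip A had r = 0.016, 0.09, 0.227 and 0.245, and different-numbered ones -0.337 to 0.198. For HFD and NMN mice on chip B these were -0.095, -0.285, -0.012 and 0.306, against -0.324 to 0.394. Whether the numbers pair mice between groups is not settled by these r. With the replicate number as a block, 791, 0, 19 and 455 probes passed for diet, NMN, chip and NMN against chow. In the main fit these counts were 767, 1, 515 and 1157. Over all 10550 probes, the diet count was 163 without HFD mice 2 and 3, 334 to 874 without each mouse and 1187 with array weights. On fewer probes it was 470 of 7081 with z scores (6.64%) and 517 of 6559 with 1 probe a gene (7.88%). The share in the main fit was 7.27%. The NMN count was 0 to 11. The chip count was 37 with no filter and 5 with no mouse block, 837 with array weights; that of NMN against chow was 426 with no filter, 138 with no mouse block, 715 with z scores, 745 with 1 probe a gene and 548 to 1363 without each mouse. Weak probes, Psmd6, Psmd9 and Psmd12, limit what can be read for those members.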
